A study of Mus musculus with 24 samples.

Results

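The mRNA of 177 genes in one segment of mouse chromosome 6 was examined in embryonic stem cells that lack BPTF, a subunit of the chromatin remodeling complex NURF. In the mouse genome assembly mm10 (GRCm38) the segment runs from position 66896397 to 94283929, 27.4 Mb, and covers the starts of 264 of the 24594 genes in the counts table. Members were the 177 genes with a start in this range and at least 10 counts in at least 2 of the 24 libraries. They hold 161 protein-coding genes, 15 long noncoding RNAs and 1 other gene. The members were chosen by their log2 fold change between the BptfΔ libraries and their wild-type (WT) control, in that the borders enclose neighbours below WT, so the BptfΔ values of the members are given as a description without a test. A shorter inner stretch, from 70.77 to 73.28 Mb (2.51 Mb long, 35 members), was set in the same way from the Rsf1Δ libraries, and is described there without a test as well. The other 87 genes of the segment in the table were below the count minimum, and 30 of them had 0 counts in every library.

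All cells were mouse embryonic stem cells (mESCs) of the strain 129S6/SvEvTac grown in serum and LIF, and each deletion was made with CRISPR–Cas9 and taken from 1 clone per genotype. RNA sequencing libraries came in batches A to E with their own WT libraries: WT, Rsf1Δ and WstfΔ in batch A, WT and Tip5Δ in batch B, WT and BptfΔ in batch C, 3 WT and 3 libraries labelled Cecr2Δ in batch D, and WT and Acf1Δ in batch E, with 2 libraries where no number is given. Because every genotype is 1 clone, the deletion and any other feature of that clone cannot be told apart, and the spread between libraries of a genotype covers repeated cultures or preparations of that clone only.

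BPTF is the largest subunit of NURF, which slides nucleosomes through the ATPases SNF2H or SNF2L, and RSF1 is the partner of SNF2H in the complex RSF. Both genes lie outside chromosome 6. Neighbouring genes on a chromosome differ in function as a rule, and those of this segment code for proteins as different as the replicative helicase, splicing factors, mitochondrial ribosomal proteins and the protein translocation channel of the endoplasmic reticulum. Levels are given relative to WT, where a log2 fold change of -1 is a level of 50%.

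Total counts per library were between 13417755 and 36721585. Bptf mRNA was at 77.5 to 81.6 normalized CPM (counts divided by the scaled library size and given on the usual CPM scale) in the BptfΔ libraries against 301 to 320.4 in WT C, and Rsf1 mRNA at 22.9 to 23.2 in Rsf1Δ against 104 to 117 in WT A. Cecr2 mRNA was higher in the libraries labelled Cecr2Δ (142 to 149 normalized CPM) than in their WT (107 to 121), so this line is named by its label. Baz2a mRNA, which codes for TIP5, was at 421 to 429 in Tip5Δ against 499 to 517 in WT B, so mRNA is no check of that label either. The paper reports that western blots detected none of the deleted protein in its deletion lines. Summed mRNA of 6 markers of embryonic stem cells was between 2527 and 4116 normalized CPM in each of the 24 libraries, with 3897 to 3898 in BptfΔ against 2610 to 2676 in WT C and 3463 to 3467 in Rsf1Δ against 2527 to 2618 in WT A. The 4 libraries of batch C, BptfΔ and its WT alike, stood apart in Rpph1, the RNA of ribonuclease P, which was at 3287 to 4823 normalized CPM in them and at most 3.39 elsewhere. Of the 177 members, 48 overlap another gene in the table, and reads of such pairs may not be told apart. In bulk RNA, fewer cells with a transcript and less of it per cell cannot be told apart, and counts of RNA hold no measure of DNA copy number or of the allele a transcript came from.

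The mRNA of the segment was lower in both BptfΔ libraries than in any WT library. Over the 115 members with a mean of at least 5 normalized CPM in the WT libraries of every batch, the members summed to 7223 and 7263 normalized CPM in the BptfΔ libraries and to 12407 and 12312 in WT C. In the other 20 libraries the sum was between 11443 and 13598. The median member was at 58.1% of WT C in one BptfΔ library and at 57.8% in the other, and 109 of the 115 members were below the WT C mean in each. The remaining genes of chromosome 6 with such levels (324 genes) had a median of 104% and 103% of WT C in the same libraries. Thus the 2 BptfΔ libraries stood apart from the other 22 over this segment and differed little from each other.

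**Figure D1:**
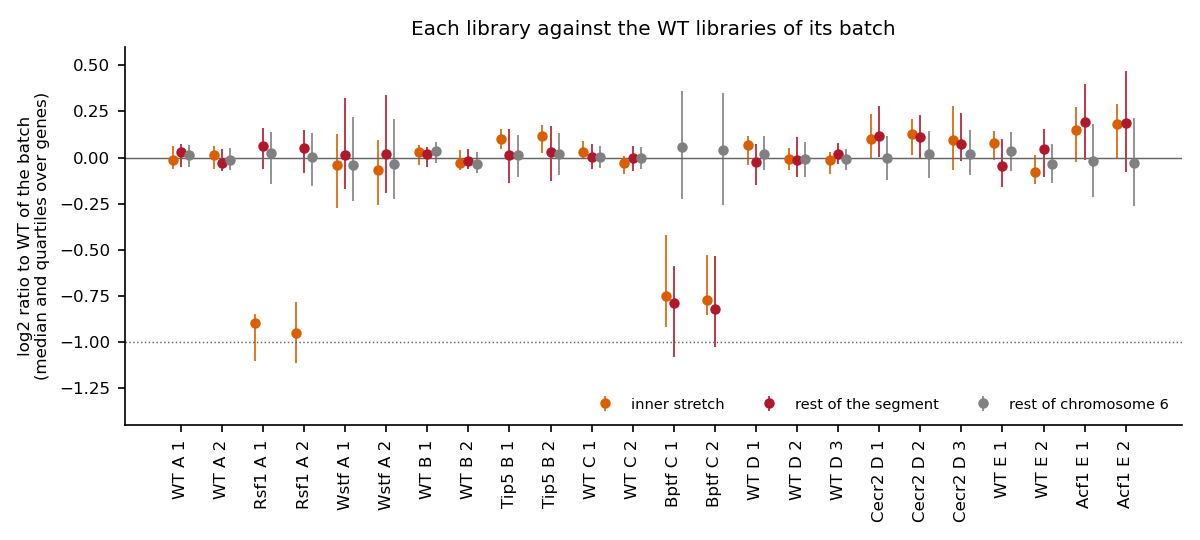
Median log2 ratio (points) and quartiles (lines) over genes of each library against the mean of the WT libraries of its batch, for members of the inner stretch (orange, 26 genes), the other members (red, 89 genes) and the rest of chromosome 6 (gray, 324 genes), all with at least 5 normalized CPM in WT of every batch. For a WT library this mean leaves out the library itself, so where a batch has 2 WT libraries their points mirror each other. Red and orange points of the 2 BptfΔ libraries lie between -0.82 and -0.75. In the 2 Rsf1Δ libraries the orange points alone lie apart, at -0.90 and -0.95.

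For single genes, log2 fold changes and standard errors (SE) came from edgeR's quasi-likelihood fit over all 24 libraries, in which each line was compared with the WT of its batch. Of the 177 members, 176 passed the filter on low counts of this fit, and Lbx2, with at most 12 counts in any library, did not. A member was called about halved at a log2 fold change from -1.5 to -0.5 (35.4% to 70.7% of WT), lower when it was under -1.5, and escaping when it was over -0.5. In BptfΔ 102 members were about halved (58.0%, against 12.7% of all 15682 genes tested), 29 were lower (8.32% of all genes) and 45 escaped (79.0% of all genes). The median member had a log2 fold change of -0.83, that is 56.4% of WT, with quartiles of -1.13 and -0.50, while the median of all genes was 0.01. These shares follow from how the segment was chosen.

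Both BptfΔ libraries lay below both WT C libraries in 148 of 176 members (84.1%, against 38.7% of all genes) and above them in 12 (6.82%, against 41.2%). In 121 members they also lay below all 11 WT libraries of the 5 batches, as they did in 20.6% of all genes. The classes have soft borders: 48 members lay within 1 SE of one, and the median SE was 0.14. At the border of about halved and escaping, Retsat (-0.501) and Trh (-0.509) were just inside and Zxdc (-0.498) and Abtb1 (-0.496) just outside. At the border to the lower class, Alms1 (-1.43) was just inside and Aldh1l1 (-1.51) just outside.

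The median log2 fold change was below 0 in each of 6 windows along the segment. It was -0.74 over 6 members from 66.9 to 70.8 Mb, -0.76 over the 35 of the inner stretch, -0.71 over 4 from 73.3 to 82 Mb, -0.70 over 54 from 82 to 86 Mb, -0.999 over 49 from 86 to 90 Mb and -0.91 over 28 from 90 to 94.3 Mb. Escaping members lay in each of these windows, with 19 of 54 from 82 to 86 Mb and 8 of 49 from 86 to 90 Mb. The first member, Gng12 (66896397 to 67021361), a G protein gamma subunit, had 13.9 and 18.1 normalized CPM in WT C and 10.2 and 12.02 in BptfΔ (log2 fold change -0.52, SE 0.11). The last, Magi1 (93675453 to 94283929), a scaffold protein of cell junctions, had 32.5 and 29.3 in WT C and 17.2 and 15.6 in BptfΔ (-0.92, SE 0.089). The widest distance between the starts of neighbouring tested members in between was 3.63 Mb.

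The nearest tested genes on either side were not about halved. Mad2l1 (start 66535221), a protein of the mitotic checkpoint, had 137 and 136 normalized CPM in WT C and 139.8 and 141 in BptfΔ (0.04, SE 0.078). The gene before it, Gm31520, was at 0.0525 and 0.233 in WT C and 0.239 and 0.116 in BptfΔ, too low to compare (SE 0.91). On the far side Slc25a26 (start 94500295), a mitochondrial carrier, had 13.7 and 13.8 in WT C and 10.4 and 11.3 in BptfΔ (-0.34, SE 0.13), and Lrig1 (start 94604529), a transmembrane regulator of growth factor receptors, had 16.2 and 13.8 in WT C and 26.5 and 33.0 in BptfΔ (0.98, SE 0.13). Further out single genes were lower again, such as Suclg2 after the segment, with 76.0 and 72.4 in WT C and 31.7 and 29.8 in BptfΔ (-1.27, SE 0.084). The 553 tested genes of chromosome 6 outside the segment had a median of 0.00, and 12.3% of them lay in the band called about halved.

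**Figure D2:**
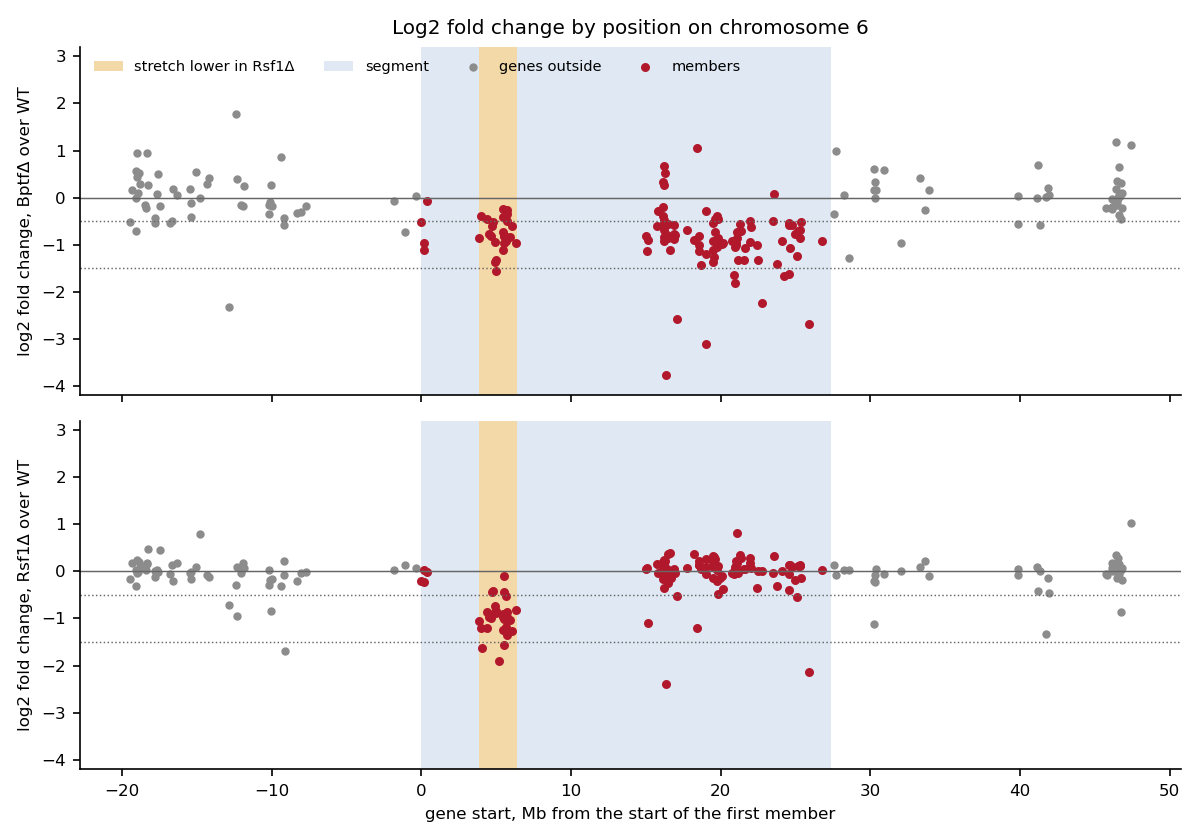
Log2 fold change of each gene against the distance of its start from the start of the first member (Mb), for BptfΔ (upper panel, genes with a mean of at least 5 normalized CPM in WT C) and Rsf1Δ (lower panel, at least 5 in WT A), with the segment in blue and the inner stretch in yellow. Dotted lines at -0.5 and -1.5 bound the band called about halved, which holds most members in the upper panel and, in the lower panel, most of those in the inner stretch.

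Members about halved had the highest median level of the 3 classes, 37.4 normalized CPM in WT C, against 6.24 for escaping and 1.95 for lower members and 17.7 for all genes. Of the 120 members with at least 5 normalized CPM in WT C, 86 were about halved (71.7%), 10 lower and 24 escaping, and of the 56 under that level 16, 19 and 21. The classes thus overlapped in level, and the most expressed member of all, Serbp1, escaped. The median SE was 0.10 for members about halved, 0.19 for escaping and 0.35 for lower ones. Genes with few counts were thus placed less firmly, and a link of level with class was not tested. In 98 of the 102 members about halved both BptfΔ libraries lay below both WT C libraries (38.7% of all genes), a count that the choice by these values builds in. Cnbp, a zinc finger protein that binds single-stranded nucleic acids, had the highest level among members about halved, with 936 and 932 normalized CPM in WT C and 455 and 454 in BptfΔ (-1.04, SE 0.072). Zfp638, a zinc finger protein of the nucleus, had 262 and 273 in WT C and 159 and 151 in BptfΔ (-0.79, SE 0.065). For both genes the gap between groups was far wider than that between libraries of a group.

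The lists by role were drawn from the members, so their counts are a description, to be set beside the 58.0% of the segment and the 12.7% of all genes that were about halved. Of 6 genes of DNA replication and repair, 6 were about halved. Mcm2, a subunit of the replicative helicase, had 608 and 586 normalized CPM in WT C and 311 and 312 in BptfΔ (-0.94, SE 0.053). Hmces, which shields abasic sites in single-stranded DNA, had 203 and 193 in WT C and 100.3 and 102 in BptfΔ (-0.97, SE 0.065). At the weaker end Xpc, which recognizes lesions in nucleotide excision repair, had 39.4 and 34.5 in WT C and 24.6 and 26.6 in BptfΔ (-0.53, SE 0.088). The others were Gadd45a, a growth arrest gene induced by DNA damage (-1.10), Aplf, a factor of DNA end joining (-0.91), and Pole4, an accessory subunit of DNA polymerase epsilon (-0.60). In each of the 6 both BptfΔ libraries lay below both WT C libraries.

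The list of RNA processing and translation had 14 genes, and it also counted Cct7, a gene of protein folding. Of the 14, 10 were about halved (71.4%), 1 was lower and 3 escaped. Cct7, a subunit of the chaperonin that folds actin and tubulin, had 913 and 870.5 normalized CPM in WT C and 444 and 445 in BptfΔ (-1.004, SE 0.064). Polr1a, the largest subunit of RNA polymerase I, had 329 and 329 in WT C and 132 and 131 in BptfΔ (-1.32, SE 0.082), and Usp39, a splicing factor, 152 and 145 in WT C and 69.3 and 68.5 in BptfΔ (-1.11, SE 0.074). These 3 genes thus stood at 40.1% to 49.9% of WT. The small splicing proteins Snrpg (-1.37), Lsm3 (-1.07) and Snrnp27 (-1.04) were in the same range, as were the RNA-binding proteins Tia1 (-0.91) and Pcbp1 (-0.73), the translation repressor Paip2b (-0.76) and the selenocysteine elongation factor Eefsec (-0.70). The splicing factor Isy1 was the lower one, with 113 and 114 in WT C and 30.5 and 34.1 in BptfΔ (-1.81, SE 0.083).

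Of 14 genes for mitochondrial proteins, 11 were about halved (78.6%), 2 were lower and 1 escaped. Immt, which organizes the folds of the inner membrane, had 378 and 376 normalized CPM in WT C and 192 and 199.5 in BptfΔ (-0.95, SE 0.055). Suclg1, the alpha subunit of succinyl-CoA ligase and the last member of the inner stretch, had 109.6 and 107 in WT C and 55.9 and 55.7 in BptfΔ (-0.95, SE 0.083). Mthfd2, an enzyme of mitochondrial folate metabolism, was nearer to WT with 157 and 158 in WT C and 107 and 108 in BptfΔ (-0.55, SE 0.056). The mitochondrial ribosomal proteins Mrpl35 (-1.36), Mrpl19 (-1.13), Mrpl53 (-0.92) and Mrps25 (-0.86) were all about halved, and so were the kinase Dguok (-1.11), the iron–sulfur protein Nfu1 (-0.98), Chchd6 (-1.32) and Sfxn5 (-0.80). Below the band lay Ptcd3, a protein of the mitochondrial ribosome, with 277 and 283 in WT C and 94.1 and 95.1 in BptfΔ (-1.56, SE 0.060), and Chchd4, which imports proteins into the intermembrane space, with 98.97 and 98.0 in WT C and 29.8 and 34.0 in BptfΔ (-1.63, SE 0.076). The protease Htra2 escaped, with 35.6 and 37.6 in WT C and 26.8 and 29.3 in BptfΔ (-0.38, SE 0.082). Htra2 overlaps Aup1 and Loxl3, which were at -0.58 and -0.20.

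The secretory pathway had 11 of 13 genes about halved (84.6%), 1 lower and 1 escaping. Sec61a1, the channel through which new proteins enter the endoplasmic reticulum, had 333 and 336 normalized CPM in WT C and 157 and 162 in BptfΔ (-1.07, SE 0.064). Rpn1, a subunit of the enzyme that glycosylates them there, had 266 and 261 in WT C and 107 and 105 in BptfΔ (-1.32, SE 0.062), and Rab7, a GTPase of late endosomes, had 102 and 94.7 in WT C and 60.0 and 59.2 in BptfΔ (-0.72, SE 0.077). The levels of the BptfΔ libraries thus ranged from 40.2% of WT for Rpn1 to 60.7% for Rab7. The coat protein Copg1 (-1.01), the ESCRT protein Chmp3 (-0.81), the SNARE Vamp8 (-0.82), the glucosidase Mogs (-0.70), Rbsn (-0.70), Exoc6b (-0.69), the dynactin subunit Dctn1 (-0.57) and Reep1 (-0.52) were about halved too. The GTPase Rab43 was lower, with 67.7 and 71.5 in WT C and 21.6 and 22.6 in BptfΔ (-1.65, SE 0.11). Tgoln1, a protein of the trans-Golgi network, escaped with 80.9 and 79.6 in WT C and 68.8 and 65.0 in BptfΔ (-0.26, SE 0.074).

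Among 12 metabolic enzymes, 7 were about halved (58.3%, near the share of the segment), 3 lower and 2 escaping. Mat2a, which makes S-adenosylmethionine, had 496 and 509.7 normalized CPM in WT C and 291 and 285 in BptfΔ (-0.81, SE 0.056). Rpia, an enzyme of the pentose phosphate pathway and the first member of the inner stretch, had 11.7 and 9.28 in WT C and 5.87 and 5.83 in BptfΔ (-0.85, SE 0.14). The others about halved were Gfpt1 (-0.97), St3gal5 (-0.92), Spr (-0.89), Ggcx (-0.80) and Retsat (-0.50). Txnrd3, a thioredoxin reductase, was lower with 11.4 and 11.9 in WT C and 2.63 and 2.31 in BptfΔ (-2.23, SE 0.16). Aldh1l1 (-1.51) and Cyp26b1, with 2 and 6 counts in WT C and 0 and 1 in BptfΔ, were the other lower ones. Hexokinase 2 (Hk2), which starts glycolysis, was one of the most expressed members and escaped, with 511 and 514 normalized CPM in WT C and 419.6 and 424 in BptfΔ (-0.28, SE 0.056). Mgll, a lipase of monoacylglycerols, was higher in BptfΔ, with 0.682 and 0.583 in WT C and 6.76 and 6.12 in BptfΔ (3.33, SE 0.38).

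Of 18 listed chromatin proteins and transcription factors, 8 were about halved (44.4%), 2 lower and 8 escaping. The list is not complete, and leaves out the transcription factor Klf15 (0.09), the linker histone H1f10 (-0.999) and the homeobox gene Vax2 (-0.70). Ruvbl1, an ATPase shared by several chromatin complexes, had 141 and 135 normalized CPM in WT C and 54.6 and 55.3 in BptfΔ (-1.33, SE 0.077). Kdm3a, a histone demethylase, had 209 and 213 in WT C and 141 and 135 in BptfΔ (-0.61, SE 0.059). Tet3, which oxidizes 5-methylcytosine, had 13.1 and 15.8 in WT C and 11.5 and 8.15 in BptfΔ (-0.56, SE 0.19), with a wide gap between its 2 BptfΔ libraries that still lay below both of WT C. Gata2, a transcription factor of blood progenitors, had 9.71 and 8.93 in WT C and 5.21 and 7.39 in BptfΔ (-0.56, SE 0.17). Smyd5 (-1.13), Cnbp, Zfp638 and the nuclear receptor Nr2c2 (-0.72) completed those about halved. The forkhead factor Foxi3 was lower, with 3.94 and 2.98 in WT C and 0.419 and 0.693 in BptfΔ (-2.63, SE 0.34), and so was the deacetylase Hdac11, with 5.72 and 6.88 in WT C and 2.09 and 1.85 in BptfΔ (-1.67, SE 0.23).

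Escaping members of that list were Zxdc (-0.50), Ino80b (-0.48), Mxd1 (-0.39), Tcf7l1 (-0.36), the Polycomb protein Pcgf1 (-0.13), Smyd1 (0.24), Egr4 (0.65) and Tlx2. Tcf7l1, a repressor at targets of Wnt signaling, had 9.24 and 12.3 normalized CPM in WT C and 7.84 and 8.90 in BptfΔ (-0.36, SE 0.15). It was at 75.7 and 72.1 in WT A, so the WT level in batch C was low beside that of another batch. The homeobox gene Tlx2 was at 0.262 and 0.408 in WT C (5 and 7 counts) and at 6.05 and 5.49 in BptfΔ (4.10, SE 0.48).

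Ligands, receptors and adhesion proteins had 6 of 14 about halved (42.9%), 6 lower and 2 escaping. Plxna1, a semaphorin receptor, had 125 and 129 normalized CPM in WT C and 61.9 and 64.1 in BptfΔ (-1.01, SE 0.12). Trh, the precursor of thyrotropin-releasing hormone, had 117 and 113 in WT C and 78.2 and 83.9 in BptfΔ (-0.51, SE 0.071). Adamts9, a secreted protease, was far lower, with 64.5 and 67.0 in WT C and 9.88 and 10.6 in BptfΔ (-2.68, SE 0.14). Wnt7a had 8 and 5 counts in WT C and 0 in both BptfΔ libraries, at least 2.02-fold lower against a floor of 3 counts per library. The growth factor Tgfa (-1.86), Antxr1 (-1.58) and the matrix protein Fbln2 (-2.03) were lower as well. Magi1, Sema4f (-1.21), Prokr1 (-0.82) and Ctnna2 (-0.62) were about halved, the latter pair on under 1 normalized CPM in WT C. Podxl2 (0.12) and Prickle2 (0.94) escaped.

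Of the 85 members in none of these lists, 43 were about halved (50.6%). In order along the chromosome the first of them were Gng12, E230016M11Rik, Gm1070, Rmnd5a, Tmem150a, Particl, Capg, Kcmf1, Tmsb10, Gcfc2, Eva1a, Aup1, Ccdc142, Mob1a, Bola3, Gm21284, Vax2os, Vax2, Tex261, Nagk and Pradc1. Bola3, which helps to place iron–sulfur clusters, had 9.55 and 9.22 normalized CPM in WT C and 4.91 and 5.49 in BptfΔ (-0.85, SE 0.19). Further along followed Alms1, Tprkb, Fam136a, Pcyox1, C87436, A430078I02Rik, 2310040G24Rik, Anxa4, Aak1, 1810020O05Rik, H1f10, Gm5577, Tpra1, Cfap100, Iqsec1, Nup210, 1810044D09Rik, Tmem43, Slc6a6, Grip2, Ccdc174 and Fgd5. Among those with high mRNA, Rmnd5a, a subunit of a ubiquitin ligase, had 169 and 170.0 in WT C and 99.9 and 99.9 in BptfΔ (-0.76, SE 0.060), and the taurine transporter Slc6a6 had 191 and 181 in WT C and 124 and 127 in BptfΔ (-0.57, SE 0.072). Alms1, a centrosomal protein, had 119.8 and 131 in WT C and 47.2 and 45.8 in BptfΔ (-1.43, SE 0.13).

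The lower class mixed a few well expressed genes with many near the limit of detection. Of its 29 members, 10 had at least 5 normalized CPM in WT C, 7 had between 1 and 5, and 12 had less than 1. The 10 were Ptcd3, Isy1, Chchd4, Rab43, Adamts9, Dysf, Slc4a5, Txnrd3, Hdac11 and Nat8f4. Slc4a5, a bicarbonate cotransporter, had 16.2 and 14.2 normalized CPM in WT C and 1.08 and 1.16 in BptfΔ (-3.77, SE 0.19). Dysf, which repairs muscle membranes, had 15.3 and 18.4 in WT C and 2.93 and 2.72 in BptfΔ (-2.57, SE 0.14), and Nat8f4, of a family of near-identical acetyltransferases whose reads may be shared, had 5.25 and 5.02 in WT C and 0.479 and 0.693 in BptfΔ (-3.12, SE 0.25). For these 3 genes the BptfΔ libraries held 7.35% to 16.8% of WT C.

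M1ap, a protein of male meiosis, was at 3.46 and 3.85 normalized CPM in WT C and 0.239 and 0.347 in BptfΔ (-3.61, SE 0.29). The receptors Vmn1r53 (35 and 28 counts in WT C, 4 and 5 in BptfΔ) and Vmn1r51 (15 and 15, 6 and 0) belong to a family of near copies. Asprv1 had 18 and 9 counts in WT C and 2 and 1 in BptfΔ, and the dynein Dnah6 had 10 and 8 in WT C and 0 and 3 in BptfΔ. The noncoding RNA 4930512J16Rik had 11 and 8 counts in WT C and 0 in both BptfΔ libraries, at least 2.96-fold lower. Such counts give a direction and little more.

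Gkn1, Gkn2 and Nat8f2 also had 0 counts in both BptfΔ libraries, but with 3 and 3, 2 and 6 and 2 and 5 counts in WT C a fold cannot be given, and their class rests on fitted values. The same holds for Actg2, with 1 and 4 counts in WT C and 0 and 1 in BptfΔ, and 4933427D06Rik had 4 and 11 in WT C and 1 and 0 in BptfΔ. With the members at 0 set to their bound, or to no change where none could be given, the median of all members moved from -0.83 to -0.82.

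Of the 45 escaping members, 28 had a log2 fold change below 0 and 17 above it. Both BptfΔ libraries lay below both WT C libraries in 22 of them (48.9%, against 38.7% of all genes) and above in 12 (26.7%, against 41.2%), shares which the class border and the choice of the segment shape. Serbp1 (gene ID 66870, 67266979 to 67289302), an mRNA-binding protein that associates with ribosomes, was the most expressed member of the whole segment. It had 1329.7 and 1314 normalized CPM in WT C and 1269.7 and 1261 in BptfΔ, 95.7% of WT (-0.06, SE 0.085). The 2 members before it, Gadd45a and E230016M11Rik, were about halved, at -1.10 and -0.95. The phosphatase Dusp11, which trims the 5′ ends of RNAs, had 64.7 and 66.6 in WT C and 53.7 and 54.4 in BptfΔ (-0.28, SE 0.076), and the ubiquitin ligase Rnf181 had 69.9 and 67.3 in WT C and 59.0 and 57.1 in BptfΔ (-0.24, SE 0.071). In the latter pair all BptfΔ libraries were below WT C, at 82.4% and 84.6% of it.

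A few escaping members had more mRNA in BptfΔ than in WT C. Rab11fip5, an effector of the recycling endosome GTPase RAB11, had 14.6 and 14.6 normalized CPM in WT C and 29.2 and 31.4 in BptfΔ (1.05, SE 0.16). With Tlx2, Mgll and the noncoding RNA Gm20362 (0.157 and 0.117 in WT C and 1.44 and 1.62 in BptfΔ, from 3 and 2 and 24 and 28 counts) it makes up the 4 members with a log2 fold change over 1 (6.96% of all genes). Klf15, a zinc finger transcription factor, was close to WT, with 9.66 and 8.87 in WT C and 9.28 and 10.4 in BptfΔ (0.09, SE 0.13). The interleukin receptor Il12rb2 (0.70) overlaps Serbp1.

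Escaping members were dense in 1 place. Over 132 kb from Dok1 (start 83030932) to 1700003E16Rik, 11 of 15 tested members escaped, and 7 of them were above 0, against 34 of 161 escaping elsewhere in the segment. This place was picked for these values, so no test was made. Rtkn had 7.66 and 6.94 normalized CPM in WT C and 10.9 and 12.2 in BptfΔ (0.66, SE 0.14), Wdr54 had 7.61 and 7.99 in WT C and 10.5 and 11.8 in BptfΔ (0.51, SE 0.14), and Wbp1 had 13.4 and 12.1 in WT C and 15.1 and 15.8 in BptfΔ (0.27, SE 0.12). Dok1 (0.34), Dqx1 (0.60), Tlx2, Loxl3, Htra2, Pcgf1, Ino80b and 1700003E16Rik (0.23) were the others. In between lay 4 members about halved, Aup1 (-0.58), Ccdc142 (-0.84), Mrpl53 (-0.92) and Mogs (-0.70), so neighbours a few kilobases apart fell in different classes. Several of these genes overlap (Loxl3 with Htra2, Htra2 with Aup1, Ccdc142 with Mrpl53, and Wdr54 with 1700003E16Rik).

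Elsewhere the escaping members with at least 5 normalized CPM in WT C were Gmcl1 (-0.46), Krcc1 (-0.45), 0610030E20Rik (-0.41), Elmod3 (-0.30), 1600020E01Rik (-0.44) and Abtb1, beside those named above and Eif2ak3. Below that level they were Thnsl2, Rnf103, Gm15401, Stambp, Npm3-ps1, Fbxo41, Nat8f1, 2610306M01Rik, Gm15612 and Slc41a3, with log2 fold changes from -0.49 to 0.27.

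**Figure D3:**
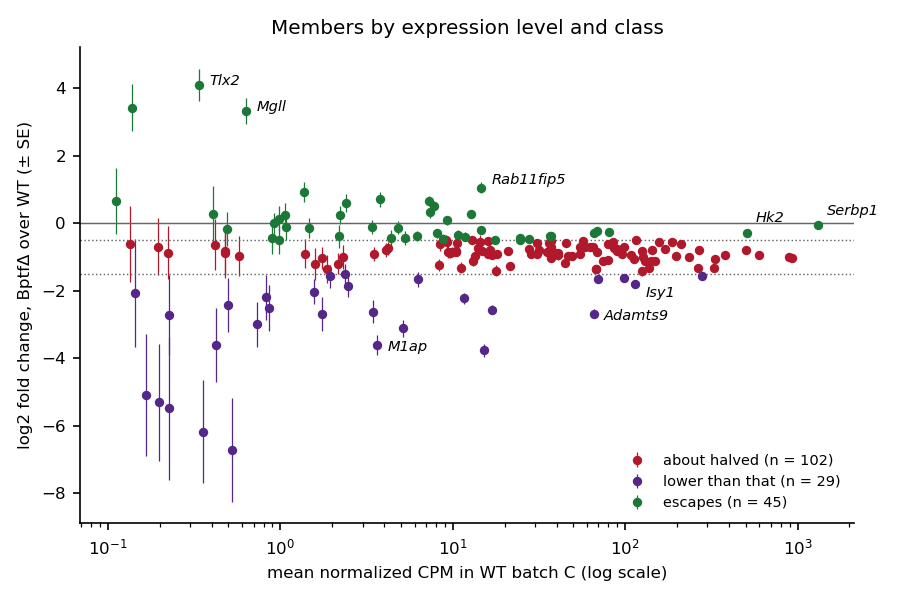
Log2 fold change in BptfΔ (± SE) of the 176 tested members against their mean normalized CPM in WT C (log scale), colored by class, with dotted lines at -0.5 and -1.5. Above 5 normalized CPM most points lie between the dotted lines, Serbp1 and Hk2 are the most expressed members above them, and below 1 normalized CPM the SE reaches far across both.

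The promoters of 3 members are shown, of 250 bases before to 50 bases after the start of transcription, as RefSeq gives them for GRCm38.p6. Serbp1 is shown as the most expressed member that escaped, Cct7 as a member with a similarly high level that was about halved, and Rpia as the first member that was about halved in both lines. Capitals mark the letters AGGNGGC on either strand, part of the longer motif of the factor CTCF.
Rpia (chr6:70792126-70792425, minus strand): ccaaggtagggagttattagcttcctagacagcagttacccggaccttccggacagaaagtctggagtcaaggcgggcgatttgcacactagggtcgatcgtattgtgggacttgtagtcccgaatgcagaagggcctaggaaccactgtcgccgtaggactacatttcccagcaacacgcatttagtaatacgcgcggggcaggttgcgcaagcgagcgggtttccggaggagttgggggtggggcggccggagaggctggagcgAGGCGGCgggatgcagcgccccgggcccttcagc
Serbp1 (chr6:67266729-67267028, plus strand): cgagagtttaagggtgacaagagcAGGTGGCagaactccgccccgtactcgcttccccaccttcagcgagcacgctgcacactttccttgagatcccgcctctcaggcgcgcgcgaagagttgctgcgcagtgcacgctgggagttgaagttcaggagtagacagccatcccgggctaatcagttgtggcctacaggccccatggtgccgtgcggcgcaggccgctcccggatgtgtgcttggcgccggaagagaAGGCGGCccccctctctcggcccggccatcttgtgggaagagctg
Cct7 (chr6:85451255-85451554, plus strand): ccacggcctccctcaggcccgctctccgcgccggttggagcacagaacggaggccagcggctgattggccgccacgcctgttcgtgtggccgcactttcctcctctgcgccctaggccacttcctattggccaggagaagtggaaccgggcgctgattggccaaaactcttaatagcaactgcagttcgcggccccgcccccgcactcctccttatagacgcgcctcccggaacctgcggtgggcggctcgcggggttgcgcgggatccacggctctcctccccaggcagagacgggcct
All 3 were rich in G and C, with 60.7% for Rpia, 64.0% for Serbp1 and 67.7% for Cct7. The letters occurred 2 times in the Serbp1 promoter, once in that of Rpia and not in that of Cct7. Among the 154 members with a promoter in the table they occurred in 45.1% of those about halved, 40.0% of lower and 36.8% of escaping ones, and in 40.3% of all tested genes. The median content of G and C was 60.3%, 60.0% and 61.7% in the 3 classes and 60.7% over all tested genes.

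In Rsf1Δ the lower level was seen over the inner stretch of 35 members. Their median log2 fold change was -0.97, that is 50.9% of WT A, and the quartiles were -1.22 and -0.85. Of the 35, 26 were about halved (74.3%, against 12.9% of all genes), 4 were lower (3.90% of all genes) and 5 escaped (83.2% of all genes). All 35 were below 0 (49.6% of all genes), and both Rsf1Δ libraries lay below both WT A libraries in 34 of them (97.1%, against 34.4% of all genes). In 28 they lay below all 11 WT libraries (5.75% of all genes). As the stretch was chosen for these values, this is a description.

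The 141 tested members outside the inner stretch had a median of 0.03 in Rsf1Δ, with 12 about halved (8.51%, against 12.9% of all genes) and 9 lower (6.38%, against 3.90%). The stretch began at Rpia, with 11.2 and 12.8 normalized CPM in WT A and 5.37 and 6.23 in Rsf1Δ (-1.05, SE 0.13), and ended at Suclg1, with 125 and 115 in WT A and 67.3 and 69.0 in Rsf1Δ (-0.82, SE 0.080). Immt, in its middle, had 349 and 333 in WT A and 188 and 185 in Rsf1Δ (-0.87, SE 0.055). Thus first, middle and last member stood at 48.4% to 56.8% of WT A.

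Of the 35 members of the inner stretch, 21 were about halved in BptfΔ (60.0%, against 12.7% of all genes) and 26 in Rsf1Δ (74.3%, against 12.9%). Both contrasts chose these genes, so the overlap of the classes is a description. Members of the stretch that were about halved in both lines numbered 15. They were Rpia, Gm1070, Rmnd5a, Chmp3, Mrpl35, Immt, Polr1a, Usp39, Tmem150a, Ggcx, Capg, Retsat, Kcmf1, Tmsb10 and Suclg1. Chmp3 had 89.7 and 93.2 normalized CPM in WT A and 47.4 and 44.0 in Rsf1Δ (-1.001, SE 0.075), and Kcmf1, a ubiquitin ligase, had 142 and 139 in WT A and 70.8 and 65.7 in Rsf1Δ (-1.04, SE 0.060). Rmnd5a had 142 and 147 in WT A and 74.6 and 73.5 in Rsf1Δ (-0.97, SE 0.060), Usp39 144 and 132 in WT A and 74.8 and 70.8 in Rsf1Δ (-0.92, SE 0.072), and Polr1a 248 and 286 in WT A and 142 and 155 in Rsf1Δ (-0.84, SE 0.081). These 5 genes lay between -1.04 and -0.84. Tmsb10, an actin-binding peptide, was at 176 and 195 in WT A and 81.8 and 73.0 in Rsf1Δ (-1.26, SE 0.11), and at 79.5 and 79.9 in WT C and 50.9 and 53.4 in BptfΔ (-0.61, SE 0.11), so the WT level in batch C was below that in batch A.

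The others of the 15 had log2 fold changes in Rsf1Δ of -0.86 (Gm1070), -0.73 (Mrpl35), -1.24 (Tmem150a), -1.02 (Ggcx), -1.17 (Capg, which caps actin filaments) and -0.86 (Retsat).

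In the inner stretch, 9 members escaped in BptfΔ and were about halved in Rsf1Δ. Eif2ak3, the kinase PERK of the unfolded protein response, had 37.2 and 39.3 normalized CPM in WT A and 16.1 and 17.3 in Rsf1Δ (-1.19, SE 0.080), and 36.8 and 36.99 in WT C and 27.6 and 28.5 in BptfΔ (-0.39, SE 0.080). Tgoln1 had 111 and 114 in WT A and 42.4 and 46.0 in Rsf1Δ (-1.34, SE 0.074) and its log2 fold change in BptfΔ was -0.26. Rnf181 had 88.9 and 86.3 in WT A and 47.5 and 46.3 in Rsf1Δ (-0.90, SE 0.069), and Krcc1 had 37.1 and 35.6 in WT A and 16.6 and 15.1 in Rsf1Δ (-1.200, SE 0.098). In these 4 genes the 2 libraries of each line lay below their own WT, by less in BptfΔ.

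Tcf7l1 had 75.7 and 72.1 normalized CPM in WT A and 40.7 and 34.6 in Rsf1Δ (-0.97, SE 0.10). The protein-coding gene 0610030E20Rik had 26.2 and 26.8 in WT A and 13.4 and 13.5 in Rsf1Δ (-0.98, SE 0.10), and Elmod3, 9.13 and 9.77 in WT A and 6.53 and 6.59 in Rsf1Δ (-0.53, SE 0.13), at the border of the class. Smyd1 and Gm15401, which overlaps Tcf7l1, were the other two, at -1.41 and -0.90. In BptfΔ, Smyd1 was above WT C in both libraries (2.31 and 2.10 in WT C and 2.63 and 2.60 in BptfΔ) and Gm15401 overlapped it (0.892 and 0.933 in WT C and 0.838 and 0.982 in BptfΔ). Rnf103, which escaped in BptfΔ, was lower than the band in Rsf1Δ, with 4.71 and 4.56 in WT A and 1.59 and 0.936 in Rsf1Δ (-1.88, SE 0.24).

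The reverse was seen for 4 members of the stretch, about halved in BptfΔ and escaping in Rsf1Δ. They were Kdm3a, Reep1, Mat2a and the noncoding RNA Particl. Kdm3a had 172 and 179 normalized CPM in WT A and 127 and 130.1 in Rsf1Δ (-0.44, SE 0.058), and Mat2a had 494 and 487 in WT A and 367 and 360.3 in Rsf1Δ (-0.43, SE 0.055). Reep1, which shapes the endoplasmic reticulum, had 6.66 and 7.23 in WT A and 5.24 and 5.21 in Rsf1Δ (-0.41, SE 0.15). Particl, which overlaps Mat2a, had 8.18 and 8.87 in WT A and 6.83 and 8.995 in Rsf1Δ (-0.10, SE 0.20), and its libraries overlapped between the groups. The other 3 were below WT A in both Rsf1Δ libraries, at 73.5% to 75.3% of it.

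Within the inner stretch 1 member escaped in both lines, the enzyme Thnsl2. It had 3.75 and 3.66 normalized CPM in WT A and 2.96 and 3.01 in Rsf1Δ (-0.31, SE 0.18). In batch C it had 3.201 and 3.62 in WT C and 2.81 and 3.47 in BptfΔ (-0.11, SE 0.20). St3gal5, which makes the ganglioside GM3, and Vamp8 were lower than the band in Rsf1Δ and about halved in BptfΔ. St3gal5 had 9.37 and 10.2 in WT A and 2.58 and 2.65 in Rsf1Δ (-1.90, SE 0.15) and Vamp8 21.6 and 22.6 in WT A and 7.13 and 7.73 in Rsf1Δ (-1.57, SE 0.11). Ptcd3 and Dnah6 were the opposite, and Ptcd3 had 228 and 224 in WT A and 125 and 119 in Rsf1Δ (-0.89, SE 0.058). Foxi3 was under -1.5 in both lines, with 8.57 and 8.70 in WT A and 2.62 and 2.93 in Rsf1Δ (-1.63, SE 0.19). Of the 35 members, 23 had a lower log2 fold change in Rsf1Δ than in BptfΔ, and the difference between the lines was not tested because both contrasts chose these genes.

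**Figure D4:**
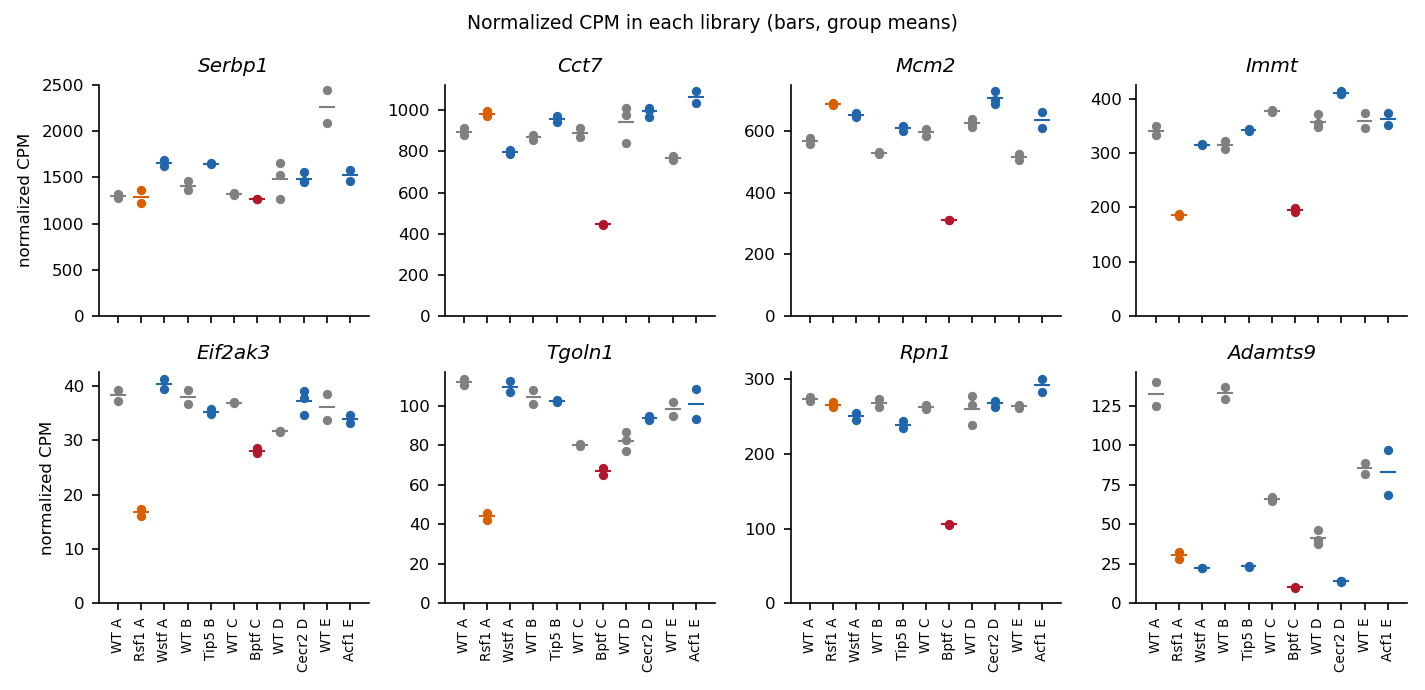
Normalized CPM of 8 members in every library (points) with group means (bars), WT in gray, BptfΔ in red, Rsf1Δ in orange and the other lines in blue. Serbp1 stays near WT in BptfΔ, Cct7, Mcm2 and Rpn1 are low in BptfΔ alone, Immt is low in BptfΔ and Rsf1Δ, Eif2ak3 and Tgoln1 are lowest in Rsf1Δ, and Adamts9 is low in several lines.

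The 4 remaining lines took no part in the choice of the segment and could be tested, with edgeR's quasi-likelihood test and p-values adjusted (Benjamini–Hochberg) over all 15682 genes. WstfΔ shares its WT libraries with Rsf1Δ. The median log2 fold change of the members was 0.00 in Tip5Δ, 0.08 in the line labelled Cecr2Δ, 0.08 in Acf1Δ and 0.00 in WstfΔ, against -0.01, 0.00, -0.03 and -0.03 over all genes. Differentially expressed genes (DEGs, past 2-fold in either direction at an adjusted p under 0.01) among the members numbered 8 in Tip5Δ, 8 in the line labelled Cecr2Δ, 13 in Acf1Δ and 18 in WstfΔ, against 2.72%, 3.11%, 4.45% and 10.4% of all genes. In Tip5Δ 8 were decreased and 0 increased (2.63% and 0.0829% of all genes), in the line labelled Cecr2Δ 5 and 3 (2.33% and 0.784%), in Acf1Δ 8 and 5 (3.32% and 1.14%) and in WstfΔ 10 and 8 (6.57% and 3.87%). All DEGs together were, as shares of the 176 members in the same order of lines, 4.55%, 4.55%, 7.39% and 10.2%. The inner stretch held 1 of them in Acf1Δ, Particl, and 1 in WstfΔ, Foxi3.

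**Figure D5:**
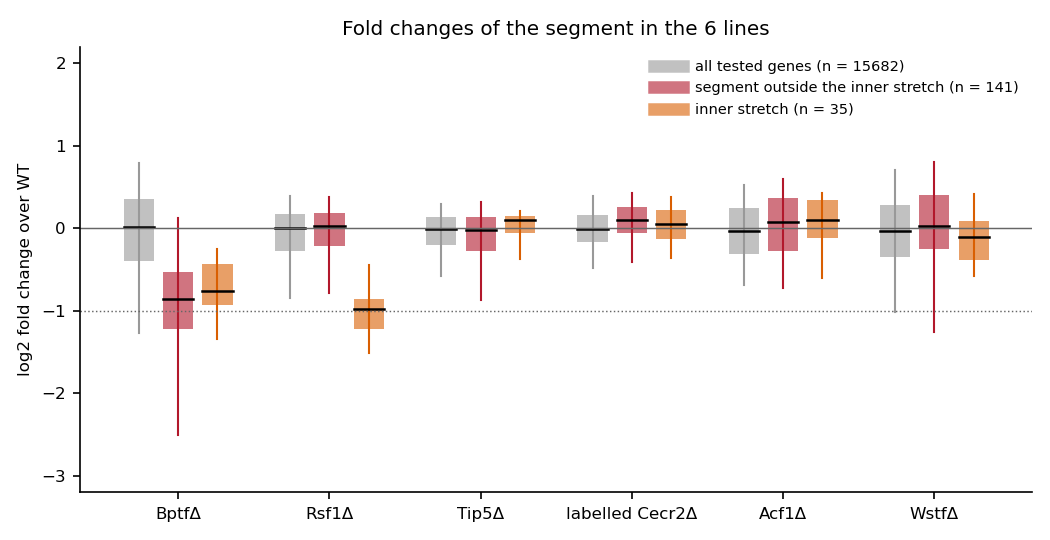
Log2 fold changes in the 6 lines of all tested genes (gray), members outside the inner stretch (red) and members of the inner stretch (orange), as median (black bar), quartiles (box) and 10th and 90th percentiles (line). Red boxes lie below 0 in BptfΔ and orange boxes in BptfΔ and Rsf1Δ, while the medians of the other 4 lines lie between -0.10 and 0.10.

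Without the minimum of 2-fold, 37 members had an adjusted p under 0.01 upward in the line labelled Cecr2Δ (21.0%, against 9.52% of all genes) and 11 downward (6.2%, against 8.83%). In Acf1Δ there were 44 of 176 upward (against 15.1%) and 19 downward (10.8%, against 16.7%), in WstfΔ 35 upward (19.9%, against 16.4%) and 32 downward (18.2%, against 18.3%), and in Tip5Δ 8 upward (4.5%, against 2.84%) and 15 downward (8.5%, against 6.23%). In the line labelled Cecr2Δ and in Acf1Δ the upward share was thus above that of all genes, and no test was made of the members as a list. Over the 115 well expressed members, each Acf1Δ library had a median of 113% to 114% of WT E, and each library labelled Cecr2Δ of 106% to 108% of WT D.

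In Tip5Δ, Gkn2 and Gkn1, gastric proteins of the gastrokine family, had few counts. Gkn2 went from 15 and 14 counts in WT B to 0 in both Tip5Δ libraries, at least 4.34-fold lower, Gkn1 from 13 and 12 to 0 and 1, and 4933427D06Rik from 21 and 23 to 3 and 1 (adjusted p 0.0018, 0.00148 and 0.00103). Better supported by counts were Slc4a5, which fell from 15.6 and 16.4 to 2.10 and 1.87 normalized CPM (-3.01, SE 0.15, adjusted p 1.43e-14), and Adamts9, which fell from 137 and 129 to 23.8 and 23.0 (-2.51, SE 0.12, adjusted p 2.54e-15). Rab11fip5, higher in BptfΔ, fell from 29.4 and 28.2 to 12.4 and 12.4 (-1.21, SE 0.15, adjusted p 9.69e-07). The last 2 of the 8 were Eva1a (-1.15, adjusted p 6.45e-08) and M1ap (-1.02, adjusted p 1.47e-05).

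In the line labelled Cecr2Δ, Adamts9 fell from 37.7, 46.2 and 40.3 to 13.4, 14.2 and 14.1 normalized CPM (-1.57, SE 0.098, adjusted p 1.30e-12). The other 4 that fell were Gkn1, Gkn2, Gm20362 and 4933427D06Rik, all with at most 26 counts in any of the 6 libraries. Trh rose from 57.2, 56.6 and 67.7 to 160.1, 151 and 164 (1.39, SE 0.057, adjusted p 1.65e-16). Prickle2, a protein of planar cell polarity, rose from 0.683, 0.911 and 0.661 to 2.59, 1.84 and 2.98 (1.72, SE 0.22, adjusted p 1.27e-06), and Fbxo41 from 0.626, 1.17 and 1.42 to 2.35, 1.93 and 2.15 (1.01, SE 0.25, adjusted p 0.00345).

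In Acf1Δ, Slc4a5 fell from 15.2 and 16.3 to 2.57 and 3.46 normalized CPM (-2.38, SE 0.13, adjusted p 4.86e-13). Gm20362 had 0 counts in Acf1Δ and 12 and 18 in WT E, at least 5.09-fold lower (adjusted p 0.000273), and Wnt7a went from 17 and 30 counts to 2 and 1 (adjusted p 2.14e-05). Gkn2, 4933427D06Rik, Tgfa and Rtkn fell as well. Among the 5 that rose, Hmces went from 126 and 125 to 238 and 274 (1.03, SE 0.063, adjusted p 1.66e-12) and Snrpg from 42.4 and 46.2 to 82.5 and 99.9 (1.04, SE 0.093, adjusted p 1.97e-09). The others were Particl (1.12), Egr4 (1.86) and A430078I02Rik (2.33).

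Of these 4 lines WstfΔ had the most DEGs, as it had over all genes. Gkn2 had 33 and 31 counts in WT A and 0 in both WstfΔ libraries, at least 6.08-fold lower (adjusted p 6.64e-05). Gkn1, Vmn1r53, Vmn1r51, Foxi3, Wnt7a, Adamts9, Slc4a5 and Fbln2 fell too, and of these Adamts9 had the most counts, from 125 and 140.0 to 22.6 and 22.5 normalized CPM (-2.55, SE 0.12, adjusted p 2.62e-15). Tlx2 rose from 3 and 0 to 15 and 21 counts (adjusted p 6.82e-05). The linker histone H1f10 rose from 6.82 and 5.94 to 24.1 and 23.9 normalized CPM (1.91, SE 0.17, adjusted p 3.96e-10) and Il12rb2 from 1.196 and 1.33 to 4.41 and 4.10 (1.75, SE 0.28, adjusted p 1.04e-05). Rtkn (1.74), Gata2 (1.55), Wdr54 (1.53), Fbxo41 (1.25) and Slc6a6 (1.17) rose as well.

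By role, the DEGs of these 4 lines are given as a description, since lists of 6 to 18 tested members are small beside shares of 2.72% to 10.4% of all genes and a count of 0 says little. The mitochondrial, secretory and metabolic lists held 0. The RNA list had Snrpg and the replication list Hmces, both increased in Acf1Δ. Chromatin proteins and transcription factors had Egr4 increased in Acf1Δ and, in WstfΔ, Tlx2 and Gata2 increased and Foxi3 decreased. The 14 tested ligands, receptors and adhesion proteins had 1 decrease in Tip5Δ, 1 decrease and 2 increases in the line labelled Cecr2Δ, 3 decreases in Acf1Δ and 4 in WstfΔ.

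By class in BptfΔ, the 102 members about halved had log2 medians of 0.05 in Tip5Δ, 0.12 in the line labelled Cecr2Δ, 0.15 in Acf1Δ and -0.01 in WstfΔ, and 1 of them was a decreased DEG in any of the 4, Eva1a in Tip5Δ. Increased DEGs among these 102 numbered 0, 1, 4 and 3 in the same order (0.0829%, 0.784%, 1.14% and 3.87% of all genes). The 29 lower members had medians of 67.3%, 98.2%, 75.9% and 42.0% of WT, and held 6, 4, 6 and 10 of the decreased DEGs (2.63%, 2.33%, 3.32% and 6.57% of all genes) and 0 of the increased ones. Adamts9, Slc4a5 and the gastrokines, lower in BptfΔ, were thus also decreased in other lines. Markers of primitive endoderm, an early lineage such cultures can hold, also differed between lines, and 5 of 5 were lower in BptfΔ than in WT C. Summed over Gata4, Gata6, Sox17, Dab2 and Pdgfra, they were at 130.0 to 138 normalized CPM in WT C and 8.14 to 9.10 in BptfΔ, 293 to 312 in WT B and 64.4 to 70.2 in Tip5Δ, 81.9 to 94.2 in WT D and 23.2 to 27.3 in the line labelled Cecr2Δ, and 291 to 298 in WT A, 117 to 121 in WstfΔ and 117 to 124 in Rsf1Δ. In batch E they were at 214 to 222 in WT and 239 to 273 in Acf1Δ, where Dab2 was below WT and the other 4 genes above it. Marker sums of trophectoderm were at 64.5 to 66.1 in WT C and 35.4 to 40.1 in BptfΔ, 186 in both WT A libraries, 37.9 to 38.5 in Rsf1Δ and 30.4 to 34.1 in WstfΔ, 147 to 153 in WT B and 81.6 to 90.04 in Tip5Δ, 40.9 to 49.1 in WT D and 20.3 to 21.7 in the line labelled Cecr2Δ, and 104 to 109.6 in WT E and 82.8 to 85.4 in Acf1Δ. These sums are mostly Krt8, a keratin of simple epithelia, which was below its WT in all 6 lines. Eomes, a T-box transcription factor, was above WT in both libraries of BptfΔ (2.69 and 3.99, against 2.204 and 2.68 in WT C), Rsf1Δ (4.29 and 4.31, against 2.91 and 4.004 in WT A) and WstfΔ (7.44 and 6.80), so the markers of this list did not move together.

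Neural markers, summed over Sox1, Nes and Pax6, were at 49.9 to 53.9 in WT C and 42.7 to 42.9 in BptfΔ, 86.5 to 98.6 in WT A, 33.8 to 34.5 in Rsf1Δ and 33.1 to 33.9 in WstfΔ, and 50.3 to 53.2 in WT E and 25.6 to 27.2 in Acf1Δ. In Tip5Δ they were higher (87.5 to 93.2 against 51.0 to 51.4), and in the line labelled Cecr2Δ at 28.3 to 28.6 against 30.2 to 33.5. Nes made up most of the sums in WT C and BptfΔ, and in BptfΔ the 3 genes differed in direction. Sox1 was at 3.67 and 3.44 in WT C and 17.7 and 16.3 in BptfΔ, whereas Nes was at 44.6 and 41.1 in WT C and 23.1 and 24.6 in BptfΔ and Pax6 at 5.72 and 5.37 in WT C and 1.92 and 1.96 in BptfΔ. Fibroblast markers were at 7.001 to 7.98 in WT C and 2.54 to 3.11 in BptfΔ, and 22.2 to 22.6 in WT E and 12.3 to 12.7 in Acf1Δ. They were at 16.2 to 17.0 in WT A and 8.84 to 9.40 in Rsf1Δ, and between 15.3 and 28.4 in the other groups. Of this list, Col1a1 and Col3a1 were below their WT in all 6 lines, whereas Thy1 was below it in BptfΔ and above it in WstfΔ, Tip5Δ and Acf1Δ. Mesoderm markers were at 3.31 to 3.38 in WT C and 11.5 to 12.8 in BptfΔ, and between 0.963 and 3.21 elsewhere. The higher sum in BptfΔ came from Kdr alone, a receptor of vascular endothelial growth factor, at 1.78 and 1.98 in WT C and 11.4 and 12.6 in BptfΔ. T, the mesoderm factor brachyury, went the other way, from 1.42 and 1.34 in WT C to 0.0599 and 0.0578 in BptfΔ, and Mesp1 was at most 0.116 in both groups. The part of other cell types in the values of the lower members was not tested.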

How the data were processed

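RNA sequencing libraries of mESCs (24 libraries, 6 deleted lines and 11 WT libraries in 5 batches) were deposited as whole-number counts of reads per gene, which the authors made by spliced alignment to mm10 with HISAT2 through QuasR and by counting over UCSC knownGene genes. Demultiplexing used bcl2fastq 2.17 per the labels. The labels name a stranded kit and the methods an unstranded one, and the strand setting of the counting is not given in the sources used here, so overlapping genes are uncertain. The files hold no further columns of samples.

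Groups and batches came from the sample titles. Counts were fitted with edgeR 4.0.16 (R 4.3.3), quasi-likelihood, TMM normalization and a term for batch, with its filter on low counts leaving 15682 of 24594 genes. CPM values are TMM-normalized. A gene was a DEG past 2-fold in either direction with a Benjamini–Hochberg adjusted p under 0.01. The fit was tested on simulated data. The members, their classes and all lists were chosen with earlier results of these data known. Gene positions and promoters came from RefSeq GRCm38.p6, which matched 24570 gene IDs. Zero counts were set against a floor of 3 counts per library, which covers counting error only. Values per library were given for border genes, strongly expressed members about halved, lower and escaping members, inner stretch members, genes chosen in each role list and the largest changes in the other lines, and others were added after their values were seen. Replicates of a genotype are libraries of 1 clone, so p-values measure the spread between these libraries. Same-numbered libraries of a line and its WT had correlations of their deviations from -0.207 to 0.0727, so the numbers did not pair them. DESeq2 1.42.0, other filters and designs and leaving out each library were alternatives. Counts cover all members, and some single genes are not reported here.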

Additional observations from a re-analysis of the deposited data

Results flagged for a closer look

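Rtkn moved in opposite directions in 2 of the tested lines. It fell from 15.2 and 19.2 normalized CPM in WT E to 8.25 and 7.83 in Acf1Δ (-1.10, SE 0.12). It rose from 6.58 and 6.93 in WT A to 22.9 and 22.3 in WstfΔ (1.74, SE 0.13). The WT level was thus higher in batch E than in batch A, and Acf1Δ was closer to WT A than to WT E. Each fold change is against the WT of its own batch. The difference between the log2 fold changes (Acf1Δ minus WstfΔ) was -2.84 (SE 0.179, adjusted p = 1.48e-12 in edgeR's quasi-likelihood test of the contrast).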

How the results depend on the processing

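The count of members about halved in BptfΔ fell from 102 to 62 in a narrower band, within 0.25 of -1. It was between 99 and 105 when 1 library of batch C was left out. The members behind the count changed more: 157 to 165 of 176 then kept their class, and 94 or 95 were about halved in both settings. Without a batch term 84 were about halved, 72 of them in both settings, and 131 of 176 members kept their class. Against the WT libraries of the 4 other batches (chosen after seeing the data) 84 were about halved, 69 of them in both settings, and the median was -0.92. DEGs among the members in Acf1Δ (13) became 6 with a filter at a mean of 50 counts, which left 139 members, 2 without a batch term and 63 without the 2-fold minimum. For the line labelled Cecr2Δ (8) these were 3, 5 and 48, and 5 with its own WT libraries alone. For Tip5Δ (8) they were 5, 1 and 23, and 5 to 7 when 1 library was left out, with 5 without the second Tip5Δ library. For WstfΔ (18) they were 9, 9 and 67. The cause was not tested, other than that fewer genes were tested under the filter. With the replicate number as a block, 102 members were about halved in BptfΔ and 26 in Rsf1Δ, and DEGs numbered 11 in Acf1Δ, 6 in the line labelled Cecr2Δ, 8 in Tip5Δ and 18 in WstfΔ. In batch E, where same-numbered libraries deviated in opposite directions, the crossed block gave 13. Members under 1 normalized CPM had too few counts to place them in a class firmly.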
